A study of Mus musculus with 19 samples.

Results

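The mammary glands of MMTV-neu mice with mutant p53 in stromal fibroblasts were compared with those of MMTV-neu mice whose fibroblasts kept wild-type p53. The comparison held 8 of the 19 RNA-seq samples of the series, 4 NP glands and 4 N glands, and was described across all genes. Members were taken by their group labels: the 4 MG_NP and the 4 MG_N samples. MMTV-neu is a transgene that drives the ERBB2 (HER2) protein from a mammary tumor virus promoter in mammary epithelium, and all 8 mice carried it. All 4 NP mice had the genotype MMTV-neu;p53wm-R172H/+;Fsp-Cre. The wm-R172H allele makes wild-type p53 until Cre converts it to the R172H mutant, and Fsp-Cre places Cre under the promoter of S100a4 (fibroblast-specific protein), so 1 allele was convertible in cells that had used this promoter. N replicate 1 carried MMTV-neu;Fsp-Cre without the conditional allele, whereas N replicates 2, 3 and 4 carried MMTV-neu;p53wm-R172H/+ without Cre. All glands came from female tumor-bearing mice of mixed FVB/C57/BALB/c background and held no malignant lesion. Ages of the single animals and the position of the gland in the body are not given in the sources used here.

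The mammary gland of an adult mouse is a tree of luminal and basal epithelial ducts in a fat pad of adipocytes, fibroblasts, vessels and immune cells. Its fibroblasts make the collagens and proteoglycans of the matrix and signals such as FGF10, and its white adipocytes make fatty acids from glucose and store them as triglyceride. p53 is a transcription factor that restrains growth after stress, and the R172H mutant has lost normal DNA binding. Because whole glands were sequenced, fewer cells of a type and less RNA per cell cannot be told apart in any value that follows.

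Depth was similar, with 20899152 to 26373331 recovered reads per N gland and 21467242 to 26888814 per NP gland. The libraries differed far more in skeletal muscle. A list of 24 muscle genes, such as Acta1 (skeletal actin), Ckm (muscle creatine kinase) and Actn3 (fast-fiber actinin), took up 0.162%, 0.209%, 0.106% and 0.026% of the reads in N replicates 1 to 4. In NP replicates 1 to 4 it took up 3.8%, 20.393%, 0.145% and 11.83%. NP replicate 3 was thus inside the range of the N glands, and NP replicates 1, 2 and 4 were above it. Results are given below with this gland in view, with a muscle score (the mean log2 level of the 24 genes) in the model, and without NP replicates 2 and 4. All values in lists of 4 are in the order of replicates 1 to 4.

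The targeted gene, Trp53 (ENSMUSG00000059552, chromosome 11, 69580359 to 69591873 of GRCm38), was listed with normalized counts of 636, 696, 764 and 653 in the N glands and 976, 581, 1135 and 483 in the NP glands. NP replicates 1 and 3 were above all N glands and NP replicates 2 and 4 below them, and the groups overlapped (log2 difference 0.12, SE 0.27, limma adjusted p = 0.934). Counts of the wild-type and mutant alleles are added together in this value, so it does not check the conversion of the allele. S100a4, whose promoter drives Cre, was at 24.2, 33.3, 30.1 and 27.8 in N and 53.4, 8.56, 43.3 and 33.6 in NP. It was a low gene in every gland. Erbb2, on which reads of the neu transgene may also be counted, ranged from 1845 to 14718 in N and from 3966 to 10787 in NP.

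Across the 18563 genes with at least 10 normalized counts in at least 4 of the 8 glands, limma on log2(normalized count + 1) called 0 genes at a Benjamini-Hochberg adjusted p under 0.05 (0% of those tested), and the smallest adjusted p was 0.101. At an unadjusted p under 0.05 there were 1156 genes lower in NP (6.23%) and 794 higher (4.28%). edgeR on the recovered reads also called 0 genes (0%, 2085 at an unadjusted p under 0.05), with a smallest adjusted p of 0.152. DESeq2, the tool of the study, called 257 genes lower (1.38%) and 473 higher (2.55%) on the same reads. The study reported fewer lower and more higher genes for this comparison, so its counts were not reproduced, and the reason was not tested. In 771 genes (4.15%) every NP gland was lower than every N gland, and in 382 genes (2.06%) every NP gland was higher. Of the genes DESeq2 called, 241 of the 257 lower and 160 of the 473 higher had groups that did not overlap. Single glands moved these counts. Limma called 17 genes lower and 204 higher without NP replicate 3, 16 of the latter in the muscle list. DESeq2 called 142 genes lower without N replicate 2, 164 without N replicate 3, 141 without NP replicate 2 and 497 without NP replicate 4, and it called 263 higher without NP replicate 2 and 753 without NP replicate 3. Leaving out 1 gland can hardly lower the number of genes apart, since fewer values must be separated, so a rise by itself does not mark a gland. The number rose to at most 1527 lower (without NP replicate 4; 1192 without NP replicate 1) and 1121 higher (without NP replicate 3; 675, 601, 588, 696 and 642 without N replicates 2, 3 and 4 and NP replicates 1 and 4). N replicate 1, the only N gland with Cre, was the lowest N gland in 24.1% of the 257 lower genes and in 27.2% of all genes tested. N replicate 4 was the lowest in 40.1% of them (24.6% of all genes), and N replicate 2 was the highest in 52.5% (30.7% of all genes). The calls below are those of DESeq2 unless limma is named, and none of them passed limma in these 8 glands.

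The lower and the higher genes differed in how they followed muscle. For the 257 lower genes the median log2 level relative to the mean of the N glands was -1.03, -0.94, -0.87 and -0.85 in NP replicates 1 to 4. NP replicate 3, with as little muscle as the N glands, was below every N gland in 249 of them (96.9%, against 29.8% of all genes tested). The median of the 473 higher genes was 1.84, 3.98, 0.32 and 3.59 in the same glands, which is the order of their muscle share. NP replicate 3 was above every N gland in 173 of these (36.6%, against 25.0% of all genes tested). With this score as a covariate, the median difference of the lower genes went from -0.96 to -1.01 on the log2 scale and all 257 stayed below 0, while that of the higher genes went from 2.45 to 0.25 and 320 of 473 stayed above 0. The genes were called in these same glands, so the values describe them and are no separate test. The muscle score was 5.21 to 9.48 in N and 13.69, 16.52, 8.82 and 16.11 in NP. Values with the covariate thus lean on NP replicate 3, the only NP gland within the N range. The covariate also moved lists without muscle genes. Medians went from 1.09 to 4.28 for B and plasma cells, from -0.1 to 2.63 for T and NK cells and from 1.79 to 3.51 for milk proteins. That of luminal markers went from -0.01 to 0.05. Without NP replicates 2 and 4, DESeq2 called 744 genes lower, 159 of the 257 among them, and 414 higher, 116 of the 473 among them.

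**Figure D1:**
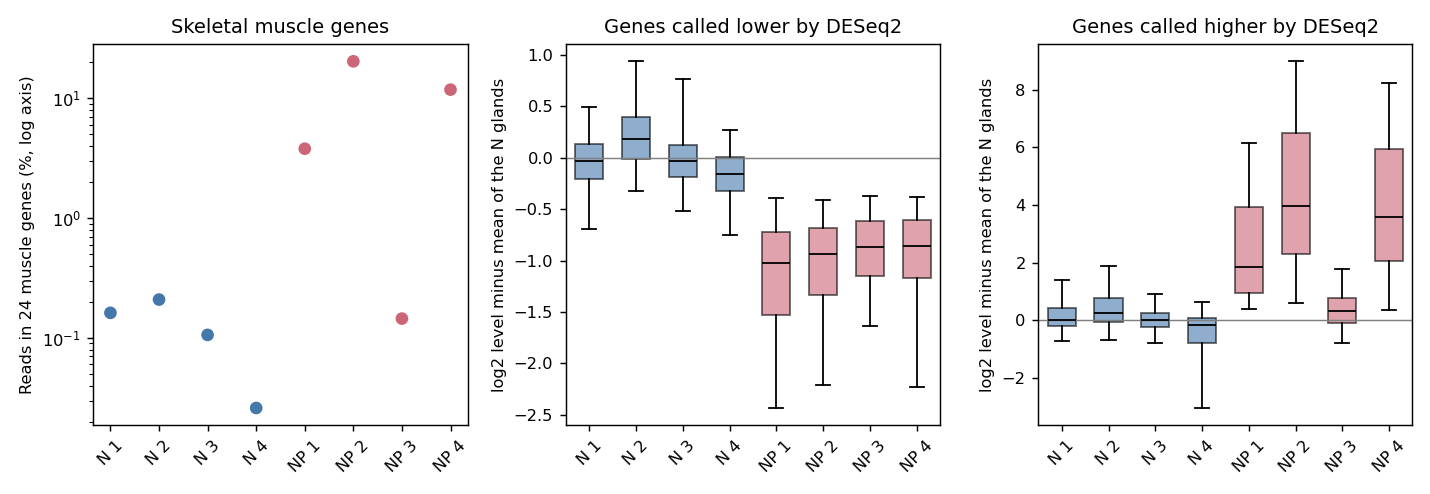
Share of reads in 24 skeletal muscle genes in each gland (left, percent on a log axis) and, for the genes called by DESeq2, their log2 level minus the mean of the 4 N glands (middle, 257 lower genes; right, 473 higher genes). Boxes span the 25th to 75th percentile of the genes with the median as a line, and whiskers reach the 5th and 95th percentile; the lower genes have medians between -1.03 and -0.85 in all 4 NP glands, whereas the higher genes have a median of 0.32 in NP replicate 3 and 1.84 to 3.98 in the others.

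Alb was the lower gene with the smallest p by both limma and DESeq2. Alb (ENSMUSG00000029368, chromosome 5, 90460897 to 90476602 of GRCm38) encodes albumin, the main protein of plasma, and is made mostly in liver. Its normalized counts were 1484, 845, 1162 and 759 in the N glands and 159, 139.9, 276 and 125 in the NP glands. The highest NP gland, replicate 3, was well below the lowest N gland, and the log2 difference was -2.61 (SE 0.3, limma adjusted p = 0.117, DESeq2 adjusted p = 2.57e-10). Of 10 genes of the liver list only 3 passed the filter, Alb among them, and the score of the list ran from 3.35 to 3.55 in N and from 3.07 to 4.33 in NP. The other tested members were Fgb (fibrinogen, 1.19) and Trf (transferrin, -0.03).

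Among the genes with the smallest p were several of fibroblasts and their surroundings. Fgf10 (ENSMUSG00000021732, chromosome 13, 118669791 to 118792115 of GRCm38) encodes a growth factor of the mesenchyme that signals to epithelium through FGFR2. It had 1467, 1410.2, 965 and 1616 normalized counts in N and 347, 589.5, 585 and 554 in NP, and all NP glands were under the lowest N gland. The log2 difference was -1.4 (SE 0.23, limma adjusted p = 0.305, DESeq2 adjusted p = 2.44e-05). The 4 receptor genes had overlapping groups, with log2 differences of -0.11 (Fgfr1), -0.31 (Fgfr2), -0.05 (Fgfr3) and 1.35 (Fgfr4, with at most 21.4 normalized counts in any gland). Fgf2, also made by stromal cells, was at -0.72 (SE 0.39) and overlapped as well. Of 11 FGF ligands and receptors tested, 1 was lower without overlap (Fgf10, 9.1%, against 4.15% of all genes). In the other direction 1 was higher (Fgf13), against 2.06% of all genes. Fgf13, an intracellular FGF that binds sodium channels, had 68.8, 116, 192 and 126 in N and 198, 554, 237 and 274 in NP, highest in the gland with the most muscle.

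Cdh11 (ENSMUSG00000031673, chromosome 8, 102632095 to 102785642 of GRCm38) encodes cadherin-11, the adhesion molecule of mesenchymal cells. Its normalized counts were 1536, 1382, 1155 and 1528 in N and 752, 662, 625 and 493 in NP. The groups were far apart relative to their spread, with a log2 difference of -1.15 (SE 0.16, limma adjusted p = 0.304, DESeq2 adjusted p = 1.52e-07). Adamts12, a secreted metalloprotease of the matrix, was at 4733, 7823, 5559.6 and 5786 in N and 1989, 2639, 2947 and 2350.2 in NP, also without overlap (log2 difference -1.26, SE 0.19, limma adjusted p = 0.305, DESeq2 adjusted p = 2.05e-06). Tenm4, a teneurin of the cell surface, was at 11839, 13093, 9785 and 11490.4 in N and 3620.5, 5341, 6451 and 5675 in NP. Its lowest level was in NP replicate 1 and its difference was -1.16 (SE 0.19, limma adjusted p = 0.305, DESeq2 adjusted p = 8.47e-05). Olfml1, an olfactomedin-domain secreted protein, was among the least variable: 828, 1038, 846 and 751 in N and 419, 472, 445 and 430.0 in NP. In the NP glands it ran from 419 to 472 (log2 difference -0.96, SE 0.13, limma adjusted p = 0.304, DESeq2 adjusted p = 8.95e-08).

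**Figure D2:**
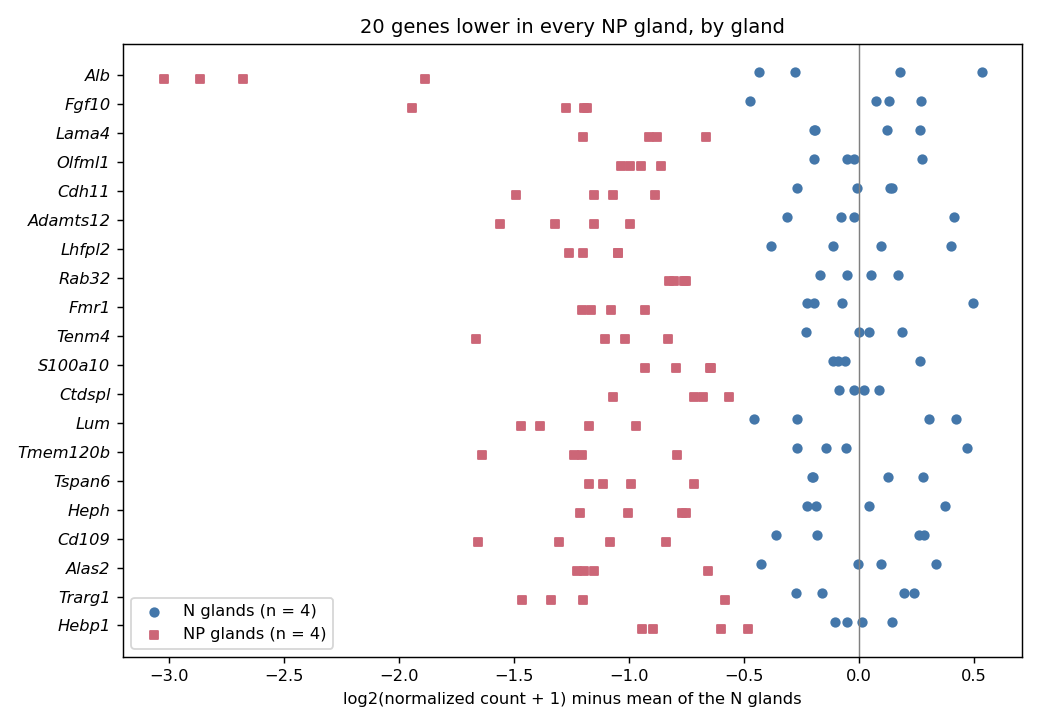
The 20 genes with the smallest limma p among those lower in every NP gland than in any N gland (mean of at least 50 normalized counts), as log2(normalized count + 1) minus the mean of the N glands. Each point is 1 gland (blue circles N, red squares NP, n = 4 each); every NP point lies to the left of every N point of its gene, and the log2 differences run from -0.73 (Hebp1) to -2.61 (Alb).

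Other genes of this set serve membranes, transport and signaling. Fmr1, the RNA-binding protein lost in fragile X syndrome, was at 4272, 2877, 2639.9 and 2592 in N and 1433, 1315, 1587 and 1348 in NP (log2 difference -1.1, SE 0.17, limma adjusted p = 0.305, DESeq2 adjusted p = 2.87e-05). Rab32, a small GTPase of lysosome-related organelles, varied little among the NP glands, with 354, 364, 348 and 367 against 596, 695, 641 and 549 in N. Neither gene overlapped between the groups. Heph, a copper ferroxidase that exports iron, was at 5204, 3433, 3531 and 4145 in N and 1731, 2388, 2002 and 2359 in NP. S100a10 (the partner of annexin A2), Ctdspl (a small phosphatase), Tspan6 (a tetraspanin), Cd109 (a membrane protein that binds TGF-beta), Lhfpl2, Hebp1 (heme-binding) and Tmem120b had log2 differences from -0.73 (Hebp1) to -1.22 (Tmem120b and Cd109) and no overlap. Trarg1, which regulates the traffic of the glucose transporter GLUT4 in fat cells, was at -1.15 (SE 0.22). By DESeq2 the smallest p-values among lower genes further included Slc2a5 (the fructose transporter GLUT5), Marc1 (a mitochondrial reductase) and Mpv17l. Slc2a5 had the largest difference of these 3. It was at 254, 256, 1019 and 94.7 in N and 15.3, 21.4, 66.1 and 10.3 in NP (log2 difference -3.62, SE 0.78, limma adjusted p = 0.305, DESeq2 adjusted p = 0.00013).

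When muscle was a covariate, the lower genes with the smallest p were Scn7a, Dnm3os, Dsel, Pdgfra, Ogn, B3galnt1, Spire1, Enpep, Cd109 and Olfml1. Several of them are genes of mesenchymal cells. Pdgfra, the PDGF receptor of fibroblasts and adipocyte progenitors, had 9811, 10803, 9109 and 9379 in N and 5436, 6204, 4595 and 7345 in NP. NP replicate 3 was the lowest of the NP glands, and the difference of -0.75 (SE 0.16) became -1.11 with the covariate. Ogn (osteoglycin, a small proteoglycan) went from -1.14 to -1.98, Enpep (aminopeptidase A) from -1.24 to -2.04, Dnm3os (a non-coding RNA of mesenchyme) from -0.89 to -1.63 and Scn7a (a sodium channel) from -0.78 to -1.37. These genes were picked by their p in the fit with the covariate. That choice favors larger differences in that fit, so the changes describe these genes only. With this covariate 0 genes passed limma as well (2613 at an unadjusted p under 0.05).

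Most matrix genes had lower values in the NP glands. Of 18 genes for collagens and fibril assembly, 17 had a log2 difference below 0 and 7 did not overlap (38.9%, against 4.15% of all genes). DESeq2 called 6 of them lower and 0 higher, against 1.38% and 2.55% of all genes. These shares over all genes also apply to the counts of the lists that follow. The median of the collagen list was -1.1, against -0.02 over all genes tested, -0.9 with the muscle covariate and -1.0 without NP replicates 2 and 4. The members without overlap were Col5a2, Col6a1, Col6a3, Col15a1, the collagen-crosslinking enzymes Lox and Loxl2, and Serpinh1, the chaperone of collagen. Loxl2 was at 707, 1899, 1023 and 776 in N and 456, 345, 483 and 458 in NP (log2 difference -1.23, SE 0.3, limma adjusted p = 0.318, DESeq2 adjusted p = 0.0071). Col15a1, of the basement membrane zone, was at 6600.3, 15730.5, 9759 and 9715 in N and 4408, 4362, 6331 and 3626 in NP. In both, N replicate 2 was the highest of all glands. Col5a2, which sets the width of collagen fibrils, was at 9779, 29375, 19658 and 10140.2 in N and 4392, 5057, 9370.1 and 5779.9 in NP (log2 difference -1.39, SE 0.4, limma adjusted p = 0.327, DESeq2 adjusted p = 0.0212), and here NP replicate 3 came close to the lowest N gland. The most abundant chains overlapped. Col3a1 was at 64095, 279912, 154828 and 76389 in N and 23711, 20744, 76979.8 and 29043 in NP, and NP replicate 3 was above N replicates 1 and 4. It was called by DESeq2 (adjusted p = 0.0309), and Col1a2 (-1.3, SE 0.66) was not (adjusted p = 0.268).

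Of 12 fibroblast markers, 11 were below 0, 5 did not overlap (41.7%) and 5 were called lower by DESeq2. The median was -1.05, -1.08 with the muscle covariate and -0.98 without NP replicates 2 and 4. Lum (lumican, a proteoglycan of collagen fibrils) was at 4415, 7484, 8119.6 and 5028 in N and 2187, 2315, 2688 and 3096 in NP. Its difference of -1.25 (SE 0.22, limma adjusted p = 0.305, DESeq2 adjusted p = 0.00015) held without NP replicates 2 and 4 (-1.32). Fap, fibroblast activation protein, was at 1688, 2722, 1987 and 1387 in N and 847, 886, 838 and 1087 in NP, with the 4 NP glands between 838 and 1087. Dpt (dermatopontin) was at 15027, 23019, 13468 and 14005 in N and 4896, 7437, 8947 and 8803 in NP (log2 difference -1.13, SE 0.25, limma adjusted p = 0.305, DESeq2 adjusted p = 0.00577). Dcn (decorin) did not overlap either, at a smaller difference of -0.61 (SE 0.22, DESeq2 adjusted p = 0.223). Fn1 (fibronectin) was at -1.05 (SE 0.54) with a single high gland, N replicate 2, at 104059 against at most 32108 in the other N glands. The score of the fibroblast list, its mean log2 level, was 12.22, 13.51, 12.88 and 12.41 in N and 11.56, 11.64, 12.25 and 11.86 in NP, so that NP replicate 3 alone reached the lowest N gland.

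Basement membrane genes were lower to a lesser degree, with a median of -0.56, 12 of 15 below 0, 5 without overlap (33.3%) and 3 called by DESeq2. Lama4 (ENSMUSG00000019846, chromosome 10, 38965515 to 39110188 of GRCm38) encodes the laminin alpha chain of vessels, fat and muscle fibers. It was at 15352, 16945, 12329 and 12336 in N and 6133, 7498, 7676 and 8883 in NP (log2 difference -0.91, SE 0.17, limma adjusted p = 0.305, DESeq2 adjusted p = 0.000447). Lamb1 (-0.73, SE 0.17), Lamc1 (-0.56, SE 0.2) and Nid1 (nidogen, -0.81, SE 0.27) did not overlap, nor did Sparc, a collagen-binding protein of remodeled matrix, at 23344, 43864, 30959.9 and 19440.0 in N and 12537, 13446, 19097 and 12395 in NP. Sparc had its highest NP value in replicate 3 and its lowest N value in replicate 4, which nearly met. The most abundant, Col4a1, overlapped (-0.8, SE 0.32). Endothelial markers were all below 0 (10 of 10, median -0.21), with 0 called, 0 without overlap and 1 lower at an unadjusted limma p under 0.05.

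Annexins and S100 proteins, calcium-dependent proteins of membranes, held 4 of 15 members without overlap (26.7%), namely Anxa2, Anxa5, S100a6 and S100a10, and 2 called lower. Anxa2 was at 7298, 9737, 7732 and 7493 in N and 4822, 6201, 5143 and 4638 in NP, a difference of -0.63 (SE 0.15, limma adjusted p = 0.305, DESeq2 adjusted p = 0.00692). With S100a10 it forms 1 complex, and S100a10 was at 3387, 4403, 3443 and 3517 in N and 1923, 2108, 2338 and 2348 in NP (log2 difference -0.75, SE 0.13, limma adjusted p = 0.305, DESeq2 adjusted p = 0.000108). The most abundant member, Anxa6, was near 0 (-0.06, SE 0.15). Anxa11 was on the other side, at 0.77 (SE 0.25), and overlapped. The lysosome list had a median of -0.31, with 19 of 20 below 0, 5 without overlap (25.0%) and 3 called lower. Those without overlap were Npc2, which carries cholesterol out of the lysosome, the cathepsins Ctsb, Ctsl and Ctsk, and Gla. Npc2 was at 8227, 7549.8, 7393 and 8157 in N and 4553, 4586, 5693 and 6172 in NP (log2 difference -0.59, SE 0.14, limma adjusted p = 0.305, DESeq2 adjusted p = 0.0208). Psap, the most abundant, was at -0.06 (SE 0.18).

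**Figure D3:**
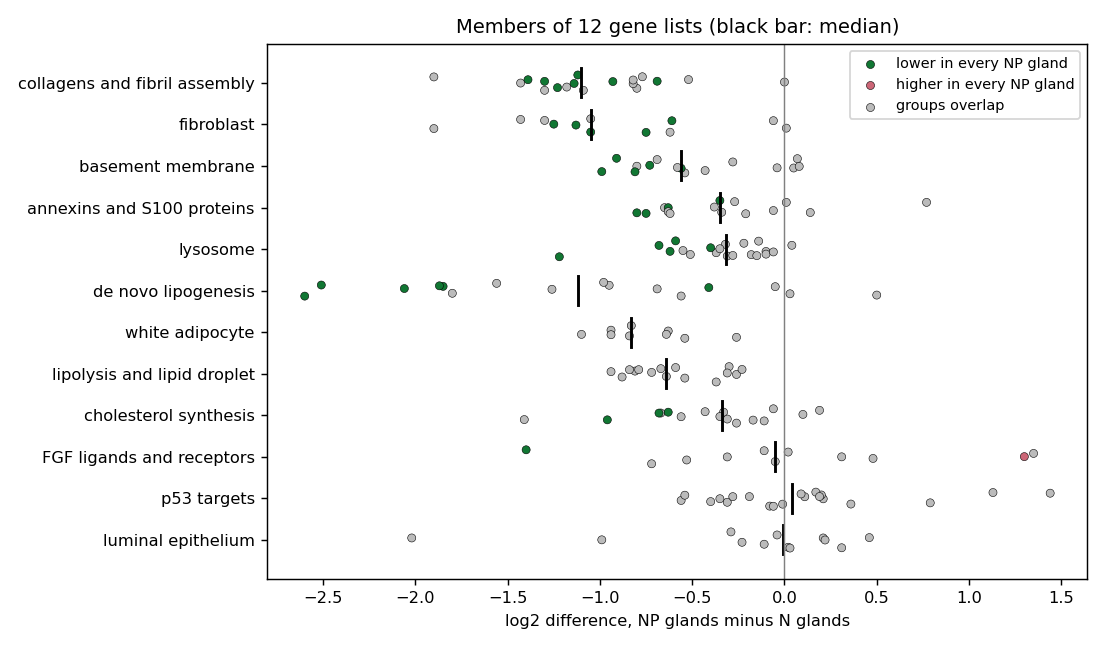
log2 difference (NP minus N glands) of every tested member of 12 gene lists, with the median as a black bar. Green points did not overlap between the groups and were lower in NP, the red point was higher, and grey points overlapped; the medians of the collagen, fibroblast and lipogenesis lists lie between -1.05 and -1.12, and those of the p53 target and luminal lists at 0.04 and -0.01.

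Of the lists of fat, sterol and mitochondrial metabolism described, de novo lipogenesis, the making of fatty acids from glucose, had the median furthest below 0. Citrate is split by ACLY to give acetyl-CoA, which is carboxylated by acetyl-CoA carboxylase (Acaca). Fatty acid synthase (Fasn) then builds palmitate with NADPH partly from malic enzyme (Me1). ELOVL6 lengthens the product and SCD1 adds a double bond. Of the 16 genes of the list, 14 were below 0, 6 did not overlap (37.5%), 7 were called lower by DESeq2 and 0 higher. The median was -1.12, -1.59 with the muscle covariate and -1.43 without NP replicates 2 and 4. Acaca (ENSMUSG00000020532, chromosome 11, 84129672 to 84401651 of GRCm38) was at 99349.7, 66224, 126434 and 54378 in N and 12226, 24173, 29346 and 30754 in NP. Every NP gland was below the lowest N gland, with a difference of -1.85 (SE 0.38, limma adjusted p = 0.305, DESeq2 adjusted p = 0.000315). Me1 was at 15298, 14265, 37889 and 9870.4 in N and 1894, 5029, 4595 and 6159.5 in NP (log2 difference -2.06, SE 0.48, limma adjusted p = 0.306, DESeq2 adjusted p = 0.00224). N replicate 3 was the highest gland here and in Elovl6, which was at 11889, 9052, 34407 and 6649 in N and 1261, 1232, 2615 and 5766 in NP (log2 difference -2.51, SE 0.63, limma adjusted p = 0.322, DESeq2 adjusted p = 0.00861).

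Scd1, the most abundant gene of the list, was at 924998, 580142, 766359 and 458124 in N and 29866, 270965, 210472 and 81276 in NP. NP replicates 1 and 4 were far below NP replicates 2 and 3, and the difference was -2.6 (SE 0.73, limma adjusted p = 0.327, DESeq2 adjusted p = 0.012). Fasn (ENSMUSG00000025153, chromosome 11, 120805846 to 120824547 of GRCm38) was at 296510.3, 318586, 495185 and 189163 in N and 27830.3, 98285, 160798 and 112724 in NP, lowest in NP replicate 1 (log2 difference -1.87, SE 0.59, limma adjusted p = 0.343, DESeq2 adjusted p = 0.033). Acly was called by DESeq2 (adjusted p = 0.0186) although NP replicate 3, at 22938, was above N replicate 4, at 13903. Scd2 was called as well (-1.56, SE 0.44, DESeq2 adjusted p = 0.00659), and since it is a close paralog of Scd1, reads may be shared between them. Srebf1, the transcription factor SREBP-1 that drives these genes, differed little but without overlap, at 7265, 10096, 9072 and 7491 in N and 5968, 6039, 6851 and 6398 in NP (-0.41, SE 0.14). Mlxipl (ChREBP, the carbohydrate-responsive factor) was at 0.03 (SE 0.45), and Acacb, the carboxylase that controls fatty acid oxidation, was at 0.5 (SE 0.34).

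**Figure D4:**
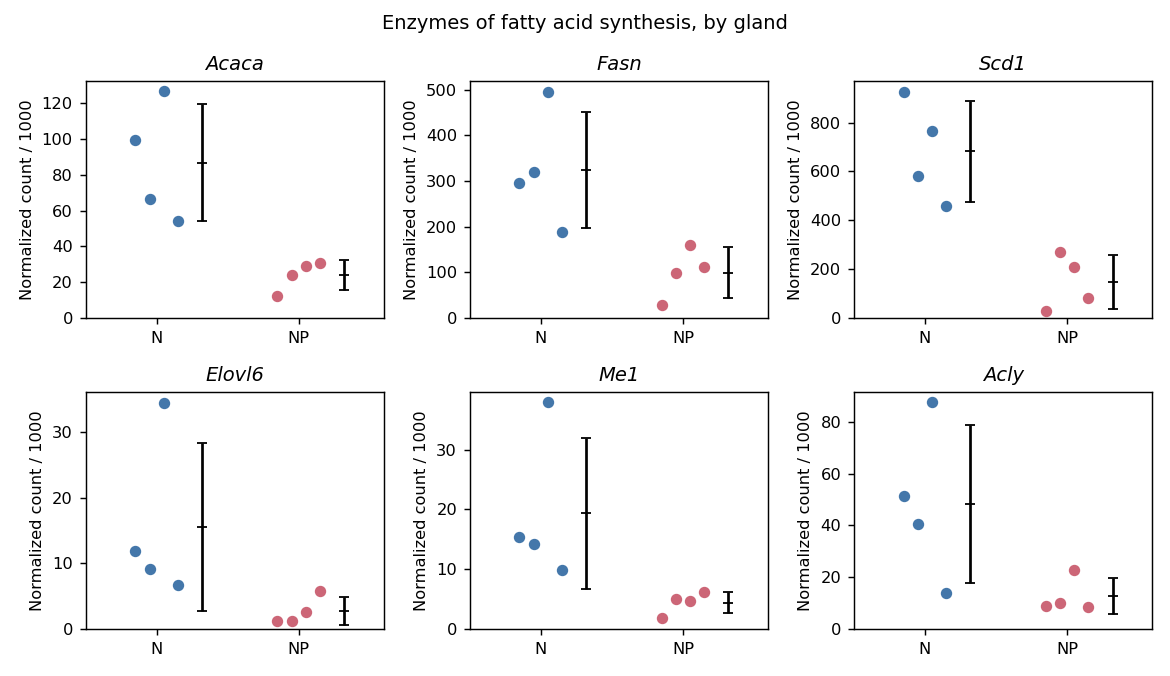
Normalized counts, divided by 1000, of 6 enzymes of fatty acid synthesis in each gland (points in the order of replicates 1 to 4, blue N, red NP) with the mean ± SD (n = 4) beside them. Acaca, Fasn, Scd1, Elovl6 and Me1 are lower in every NP gland than in any N gland, and Acly overlaps through NP replicate 3 and N replicate 4.

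The lists of white adipocyte markers and of lipolysis and the lipid droplet held 0 genes that were called or lay apart between the groups. All 9 white adipocyte markers had log2 differences below 0 (median -0.83), but 0 of 9 were without overlap and 0 were called by limma or DESeq2 (4 were lower at an unadjusted limma p under 0.05). The median was -1.09 with the muscle covariate and -1.22 without NP replicates 2 and 4, so these markers moved further below 0, as the lipogenesis list did. Adipoq (adiponectin) was at 47029, 38360.2, 36543 and 41765 in N and 14468, 23459, 21050.5 and 38749 in NP (-0.83, SE 0.29). NP replicate 4 lay among the N glands. Cfd (adipsin) was highest of all in that gland, at 135309, against 101718, 96112, 77524 and 122912 in N. The score of the list was 14.98, 14.98, 14.8 and 14.99 in N and 13.49, 14.15, 14.22 and 14.92 in NP. NP replicates 1, 2 and 3 were thus below the lowest N gland. In NP replicate 4, where this score was within the N range, Acaca was at 30754 against 54378 in the lowest N gland, Fasn at 112724 against 189163 and Scd1 at 81276 against 458124. That gland also had the highest brown adipocyte score, 11.08 against 5.59 to 6.82 in N, and brown fat expresses most genes of the white list too. Its white score therefore does not give its white adipocyte content, and the part of adipocyte content in the lipogenic difference was not tested. All 15 genes of lipolysis and the lipid droplet were below 0, with 0 called and 0 without overlap. Their median was -0.64, -0.85 with the muscle covariate and -0.89 without NP replicates 2 and 4. Among them Lipe, hormone-sensitive lipase, was at -0.81 (SE 0.27), Plin1, which coats the droplet, at -0.84 (SE 0.31), and Fabp4, the fatty acid carrier, at -0.94 (SE 0.35). Of 16 genes of cholesterol synthesis 14 were below 0 (median -0.34), and Idi1, Lss and Sc5d did not overlap (18.8%), with 0 called.

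The 250 bases before the start of 3 of these genes are shown because the lipogenic genes were lower in the same glands and because Alb had the smallest p. They come from RefSeq (GRCm38.p6), 5′ to 3′ on the strand of the gene, with CCAAT boxes (CCAAT on either strand) in capitals.
Fasn, chr11:120824548-120824797, strand minus: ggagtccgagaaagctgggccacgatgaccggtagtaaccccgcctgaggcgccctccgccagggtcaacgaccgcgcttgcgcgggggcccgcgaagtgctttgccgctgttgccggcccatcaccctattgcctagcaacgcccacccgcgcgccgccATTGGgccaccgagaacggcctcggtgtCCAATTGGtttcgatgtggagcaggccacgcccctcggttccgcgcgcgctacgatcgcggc
Elovl6, chr3:129532136-129532385, strand plus: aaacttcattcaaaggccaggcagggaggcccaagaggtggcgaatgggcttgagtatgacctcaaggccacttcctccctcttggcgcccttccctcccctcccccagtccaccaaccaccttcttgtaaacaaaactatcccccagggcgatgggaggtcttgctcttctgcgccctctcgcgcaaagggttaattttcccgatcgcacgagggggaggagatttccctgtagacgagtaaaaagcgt
Alb, chr5:90460620-90460869, strand plus: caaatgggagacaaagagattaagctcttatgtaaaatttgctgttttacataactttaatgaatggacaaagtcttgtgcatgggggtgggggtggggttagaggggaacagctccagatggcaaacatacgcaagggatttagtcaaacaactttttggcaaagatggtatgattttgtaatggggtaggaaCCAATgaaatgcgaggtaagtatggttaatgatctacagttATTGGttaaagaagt
The Fasn window held 3 matches, of which the pair nearest to the start shares 2 bases, the Alb window held 2 and the Elovl6 window 0. The table of promoters had 12 of the 16 lipogenesis genes, and 8 of these held a CCAAT box in at least 1 window, against 39.5% of the 12226 tested genes with a promoter. Of the 5 among them that DESeq2 called lower, 2 held the box (Fasn and Me1) and Acaca, Acly and Elovl6 did not, whereas 6 of the 7 not called lower held it. The Acaca window (chr11:84195188-84195437) lay inside the gene span given above, so the bases before that span were not examined. Me1 held the box in the window chr9:86687278-86687527 and not in chr9:86695915-86696164, which lies further upstream on its strand. A sterol regulatory element (TCACNCCAC, either strand) was in 1 of the 12, Mlxipl, and in 1.3% of the tested genes, and an E-box (CACGTG) in 2 of the 12 and 9.2%. Of the 256 gene symbols called lower by DESeq2, 184 had a promoter, 42.4% of these with a CCAAT box and 9.2% with an E-box. A match of letters is no evidence of binding.

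HOX genes, which encode transcription factors used in blocks according to the position along the body axis, are described by their place in the cluster. This list was drawn up after the values were seen. The table held 39 HOX genes. Of the 28 that were tested, 23 were below 0 (median -0.31), 6 did not overlap (21.4%), all lower, and 5 were called lower. The 6 were Hoxa9, Hoxa10, Hoxb8, Hoxc8, Hoxc9 and Hoxc10. Hoxc10 was at 96.8, 141, 79.8 and 91.7 in N and 21.9, 2.85, 40.1 and 1.29 in NP (log2 difference -3.4, SE 0.88, limma adjusted p = 0.327, DESeq2 adjusted p = 0.0325). NP replicates 2 and 4, the glands with most muscle, had almost none, and NP replicate 3 kept the most. With the muscle covariate the difference was -1.3. Hoxc8 was at 638, 619.5, 516 and 488 in N and 103, 207, 259.9 and 263 in NP (log2 difference -1.52, SE 0.3, limma adjusted p = 0.305, DESeq2 adjusted p = 0.00107), and Hoxa10 at 164, 159.8, 125 and 122 in N and 41.0, 67.1, 74.7 and 40.0 in NP (log2 difference -1.38, SE 0.27, limma adjusted p = 0.305, DESeq2 adjusted p = 0.000304). Hoxa9 was at -1.02 (SE 0.25) and Hoxc9 at -1.87 (SE 0.4). Genes 4 to 6 of the same Hoxa cluster were on the other side of 0, Hoxa5 at 0.72 (SE 0.64), Hoxa4 at 0.37 and Hoxa6 at 0.38, and Hoxd8 was at 0.87 (SE 0.41), all with overlap. Hoxa5 and Hoxa4 turned to -0.7 and -0.69 with the muscle covariate. Mouse glands lie from neck to groin, and whether the groups differed in the gland taken was not tested.

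**Figure D5:**
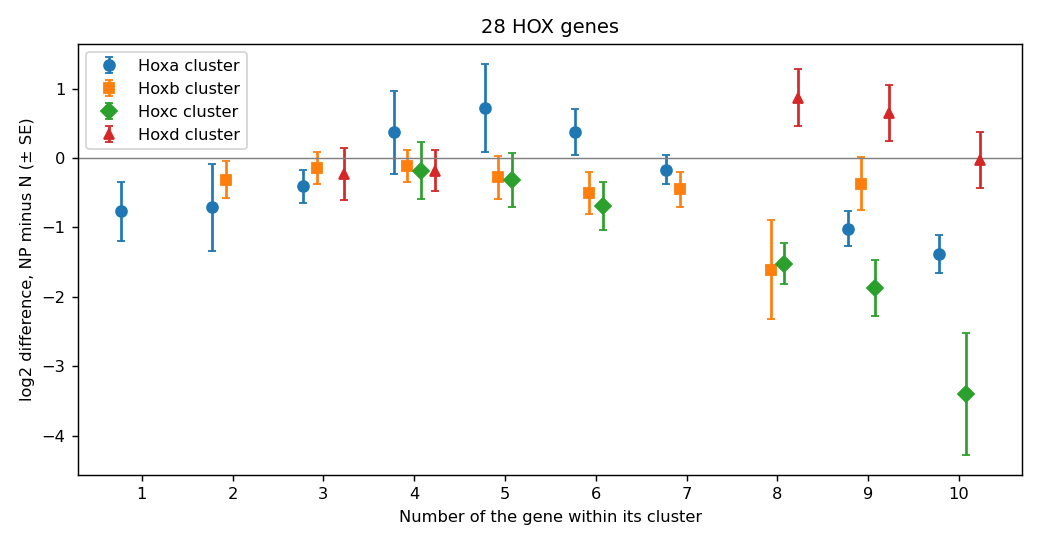
log2 difference (NP minus N glands, ± SE, n = 4 each) of the 28 tested HOX genes against their number in the cluster, for the Hoxa, Hoxb, Hoxc and Hoxd clusters. Genes 8 to 10 of the Hoxc cluster and 9 and 10 of the Hoxa cluster lie at or below -1, while Hoxd8 to Hoxd10 lie between -0.03 and 0.87.

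Red blood cell genes, another list made after the values were seen, were lower too. Hbb-bs (beta globin) was at 14909, 14892, 11288 and 18686 in N and 5438, 6158, 8089.9 and 8514 in NP (log2 difference -1.09, SE 0.21, limma adjusted p = 0.305, DESeq2 adjusted p = 0.000887). Hba-a1 (alpha globin) was at 4279.6, 3605, 2432 and 3517 in N and 1389.7, 1562, 1889 and 1992 in NP (log2 difference -1.0, SE 0.2, limma adjusted p = 0.305, DESeq2 adjusted p = 0.00167). Neither overlapped, and the same was true of Alas2, the first enzyme of heme synthesis in red cells, at 1345, 1585, 936 and 1255 in N and 548, 537, 798 and 566 in NP (log2 difference -1.06, SE 0.2, limma adjusted p = 0.305, DESeq2 adjusted p = 0.0005). Their near-identical copies Hba-a2 (-0.58, SE 0.27) and Hbb-bt (-0.52, SE 0.38) overlapped, and reads could have been split between copies.

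Among 20 p53 target genes 10 were below 0, the median was 0.04, and 0 were called or lay apart between the groups (1 was lower at an unadjusted limma p under 0.05). Those with the smallest p were Tnfrsf10b, a death receptor (-0.56, SE 0.2), Zmat3, an RNA-binding protein (-0.31, SE 0.15), and Polk, a DNA polymerase (-0.28, SE 0.15). Eda2r, a receptor of the tumor necrosis factor family, was at 176, 136, 106 and 92.7 in N and 229, 1036, 68.2 and 790.3 in NP. Its difference of 1.44 (SE 0.79) turned to -0.95 with the muscle covariate. Ccng1 (cyclin G1), at 6195, 3724, 3964 and 3790.0 in N and 5664, 25575, 3049 and 18136 in NP, also had its high values in the muscle-rich NP replicates 2 and 4. Luminal epithelial markers had a median of -0.01 and basal ones of 0.13, with 0 of 12 and 0 of 9 apart.

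Secreted genes that the study names were chosen from these samples, so their directions are not independent evidence. Of 13 of them examined here, 10 were tested. Of these, 5 were lower without overlap and called by DESeq2 (Alb, Anxa2, Fgf10, Lama4 and Npc2) and 5 were called higher (Ache, Dhrs7c, Fgf13, Fndc5 and Thbs4). Ache, acetylcholinesterase of the neuromuscular junction, was at 39.5, 65.5, 30.1 and 62.8 in N and 189.8, 307, 124 and 235 in NP (log2 difference 2.08, SE 0.36, limma adjusted p = 0.305, DESeq2 adjusted p = 6.07e-06). NP replicate 3 was lowest of the NP glands but still above every N gland. Dhrs7c, of the sarcoplasmic reticulum, was at 11.5, 16.1, 8.45 and 0 in N and 388, 3179, 10.8 and 2026 in NP, and here NP replicate 3 was within the N glands. Fndc5, the precursor of irisin, was at 66.2, 59.8, 83.6 and 47.4 in N and 139, 1310.3, 55.2 and 847 in NP, and Thbs4 (thrombospondin 4) at 63.7, 40.2, 49.8 and 41.2 in N and 118, 343, 40.1 and 697 in NP. For Fndc5, NP replicate 3 was among the N glands, and for Thbs4 it was just under the lowest N gland (40.1 against 40.2). With the muscle covariate Dhrs7c was at 0.16, Fndc5 at -0.38 and Thbs4 at -0.23, whereas Ache remained at 1.54. Saa1, Saa2 and Art5 did not pass the filter. Saa1, an acute-phase apolipoprotein, was at 2.55, 2.30, 3.76 and 5.15 in N and 55.3, 21.4, 202 and 9.04 in NP, Saa2 at 3.82, 3.45, 0.94 and 0 and 23.8, 8.56, 154 and 1.29, and Art5 at 6.37, 3.45, 5.63 and 1.03 and 119, 641, 2.17 and 371. For Saa1 every NP gland was above every N gland (lowest 9.04 against 5.15), with low counts in most glands, whereas Saa2 and Art5 overlapped. The NP values of the Saa genes were highest in replicate 3 and those of Art5 in the muscle-rich replicates.

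Among the genes higher in every NP gland, Avil, Gzmm, Pkig, Tfeb and Tnik kept differences of 2.45, 2.69, 0.88, 0.76 and 0.73 with the muscle covariate. Avil (ENSMUSG00000025432, chromosome 10, 127000709 to 127020994 of GRCm38), which encodes the actin-binding protein advillin, had the smallest limma p of all genes. It was at 48.4, 50.6, 34.7 and 60.8 in N and 285, 419.7, 248 and 479 in NP (log2 difference 2.83, SE 0.28, limma adjusted p = 0.101, DESeq2 adjusted p = 1.29e-15). Gzmm, granzyme M of natural killer cells, was at 43.3, 33.3, 48.8 and 53.6 in N and 242, 121, 246 and 130.4 in NP (log2 difference 1.97, SE 0.31, limma adjusted p = 0.305, DESeq2 adjusted p = 3.15e-07). NP replicates 1 and 3 were the highest, and the T and NK cell score was highest there among NP glands as well (8.27 and 8.34, against 5.62 and 5.65). N replicate 4, with a score of 8.49, had a Gzmm count of 53.6. Pkig, an inhibitor of protein kinase A, was at 489, 509, 544 and 565 in N and 883, 929, 941 and 761 in NP (log2 difference 0.73, SE 0.12, limma adjusted p = 0.305, DESeq2 adjusted p = 7.1e-08). Tfeb, the transcription factor of lysosome genes, was at 358, 503, 375 and 469.6 in N and 814, 1215, 694 and 957 in NP (log2 difference 1.09, SE 0.2, limma adjusted p = 0.305, DESeq2 adjusted p = 0.00015), and Tnik, a kinase of the Wnt pathway, at 1129.8, 765, 876 and 1021 in N and 1603, 2125, 1501 and 1639 in NP. Agbl1 and Fabp3 had larger folds and their highest values in the muscle-rich glands, Agbl1 at 6.37, 18.4, 2.82 and 4.12 in N and 204, 1761, 138 and 1540.5 in NP and Fabp3, the fatty acid carrier of muscle and brown fat, at 150.3, 31.0, 5.63 and 80.3 in N and 1343, 2554, 558 and 8022 in NP.

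The NP against N contrast in tumors was set beside that of the glands in 1 model over 16 samples. The 4 NP tumors had the genotype of the NP glands. All 4 N tumors carried MMTV-neu;Fsp-Cre without the conditional allele, whereas N gland replicates 2, 3 and 4 carried the allele without Cre. The N genotypes thus differed between glands and tumors, and their part in the interaction was not tested. The interaction, the NP against N difference in glands minus that in tumors, was called by limma in 0 of 19367 genes (0%), with a smallest adjusted p of 0.273. At an unadjusted p under 0.05 there were 1536 genes (7.93%); edgeR called 0 genes and had 1805 at an unadjusted p under 0.05, and DESeq2 called 368. Limma called 134 genes without NP replicate 3 of the glands, 23 without replicate 1 of the N tumors and 2 without NP replicate 4 of the glands. NP tumors 1 and 2 share an animal number in their labels, and averaging them left the count at 0. Of the 257 lower genes, 153 (59.5%) were below 0 in tumors as well, against 52.0% of all genes tested, and their median in tumors was -0.08. The median of the collagen list was -1.1 in glands and -0.46 in tumors, that of the fibroblast list -1.05 and -0.4, and that of de novo lipogenesis -1.12 and -0.05. Acaca was at -1.85 in glands and 0.21 in tumors (interaction -2.06, limma adjusted p = 0.346). For Alb the log2 differences were -2.61 in glands and 0.38 in tumors (interaction -3.0, limma adjusted p = 0.526). Fgf10 was at -1.4 in glands and -0.66 in tumors (interaction -0.74, limma adjusted p = 0.726), and Ache at 2.08 and -1.06 (interaction 3.15, limma adjusted p = 0.346). None of the genes named here passed the limma test of the interaction, so limma did not show a difference between gland and tumor for any of them. Which of them were among the 368 genes that DESeq2 called is not reported here.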

How the data were processed

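RNA-seq of 8 mammary glands (4 N, 4 NP) was used, with 8 tumors for the interaction. Per the paper, libraries were aligned to GRCm38 with TopHat2 (version 2.1.1 per the labels) and Bowtie2. The labels name a total RNA kit and the paper an mRNA kit, and the counting tool and annotation are not given in the sources used here. The authors deposited the signal as normalized counts of 46078 genes, that is read counts divided by a DESeq2 size factor per library. Values were whole multiples of 1 step per library, so reads were recovered (100% whole within 0.05 reads). Symbols and positions came from GENCODE vM21 (98.16% matched).

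Genes with at least 10 normalized counts in at least 4 glands were tested with limma (3.58.1, lmFit and eBayes with a trend) on log2(normalized count + 1), two-sided, using the 2 groups only, with Benjamini-Hochberg adjustment and a threshold of 0.05. Log2 differences on this scale understate changes of low genes. edgeR (4.0.16, quasi-likelihood) and DESeq2 (1.42.0) in R 4.3.3 were run on recovered reads, and all were tested on simulated data. The simulation gave all genes the same spread and held no muscle-rich glands. It checked the size of the estimates and does not tell which tool's calls hold in these glands. The interaction was simulated for limma only. DESeq2 gave no adjusted p for 816 genes, which count as not called.

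Labels number the samples of each group. Same-numbered N and NP glands had correlations of their deviations of 0.064, 0.319, 0.057 and -0.28, so the numbers were not taken to pair them. Nothing in the labels says that litter or batch was shared. P-values measure the spread between these animals. The 41 gene lists and the members were chosen with earlier results of these data known; the HOX and red blood cell lists came after the values were seen. Genes named were those the study names, Trp53, Erbb2 and S100a4; among genes with a mean of at least 50 normalized counts and groups apart, predicted gene models left out, 20 lower and 8 higher by limma p, 15 lower by DESeq2 p and 10 lower by p with the muscle score as covariate; and in each list up to 4 members by p and 2 by level. A gene the rule names is not reported here. Other genes named were chosen after their values were seen.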

Additional observations from a re-analysis of the deposited data

Results flagged for a closer look

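Dixon's test of the highest or lowest of 4 glands was applied to 124 groups of values and flagged 7, and chance flags about 1 in 20. Fgf10 in NP replicate 1 was at 347.2 normalized counts, the lowest, against 554.0 in the next gland. Saa2 in NP replicate 3 was at 153.8, against 23.8 in the next, and this gland also had the highest Saa1. Fmr1 was highest in N replicate 1, at 4272.0 against 2876.7. S100a10 was highest in N replicate 2, at 4403.0 against 3517.0. Alas2 was highest among the NP glands in replicate 3, at 798.3 against 565.6. Marc1 was highest in N replicate 3, at 825.5 against 354.1. The white adipocyte score of N replicate 3 was the lowest of the N glands, at 14.8 against 14.98. Each of these genes other than Saa2 kept its groups apart with that gland included. No gene named passed the limma test of a difference between gland and tumor.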

How the results depend on the processing

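The limma count of 0 lower and 0 higher genes stayed at 0 with other pseudocounts, no filter, a mean of at least 50, TMM scaling, size factors without the muscle genes, edgeR, a 2-fold threshold, array weights, the muscle covariate and without NP replicates 2 and 4. It became 257 and 473 with DESeq2, 4 and 13 with all 5 groups in a single fit, and 0 to 17 and 0 to 204 when single glands were left out. The 4 lower genes of the fit of all groups were Acaca, Adamts12, Fmr1 and Slc2a5. The DESeq2 counts were 141 to 497 lower and 263 to 753 higher with single glands left out, 744 lower without NP replicates 2 and 4, and 115 lower at 2-fold or more. The cause was not tested. The interaction count of 0 became 368 with DESeq2, 4 without NP replicates 2 and 4, and 0 to 134 with single samples left out (134 without NP replicate 3, 23 without T_N replicate 1).

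With the replicate number as a block limma called 0 genes lower, 0 higher and 0 in the interaction, and the numbers did not pair the samples. Scalings shifted the median difference of all genes by 0.02 and 0.03 only. With the muscle covariate the log2 difference of Fndc5 turned to -0.38, Thbs4 to -0.23, Erbb2 to -0.45, Psap to 0.06, Eda2r to -0.95 and Ccng1 to -0.62 (-0.05 without NP replicates 2 and 4). Leaving out single glands turned the sign of Trp53 (range -0.08 to 0.33), Erbb2 (-0.04 to 0.96), S100a4 (-0.28 to 0.56), Anxa6 (-0.13 to 0.05), Psap (-0.12 to 0.03), Fgfr1 (-0.19 to 0.08) and Trp53inp1 (-0.03 to 0.38). Depth limited values of low genes such as S100a4 and the Saa genes.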

Other observations

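Interferon-stimulated genes were all below 0 in the NP glands (16 of 16, median -0.89 on the log2 scale), with 0 apart between the groups and 1 called by DESeq2. That gene, Ifit3, a mediator of antiviral defense named after its values were seen, was at 594, 294, 237 and 596 in N and 255, 127, 141 and 77.5 in NP, and N replicates 2 and 3 were close to NP replicate 1. The median was -0.44 without NP replicates 2 and 4. Nuclear genes of oxidative phosphorylation were all above 0 (21 of 21, median 0.5) with 0 apart. Their median was -0.43 with the muscle covariate and -0.26 without NP replicates 2 and 4. The score of this list was 11.98, 11.87, 11.95 and 11.91 in N and 11.78, 12.85, 11.54 and 13.62 in NP. NP replicates 2 and 4 were above all N glands and NP replicates 1 and 3 below them. Of 20 Wnt pathway genes, Wnt2, Fzd1 and Sfrp4 were lower without overlap and the median was -0.09. The brown adipocyte score was 5.74, 6.82, 5.59 and 6.73 in N and 7.31, 5.9, 6.18 and 11.08 in NP. The gene of the thermogenic protein Ucp1, itself 1 of the 9 genes in this score, was at 24.2, 783, 86.4 and 813 in N and 1967, 2.85, 479.8 and 56926 in NP. It ranked the NP glands in the same order, which is no separate evidence because it is part of the score.

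Milk protein and immune lists varied widely within both groups. The milk protein score was 13.59, 5.79, 8.55 and 8.06 in N and 12, 10.8, 13.13 and 8.08 in NP. The score of B cells and plasma cells was 9.73, 4.4, 7.94 and 10.31 in N and 10.32, 5.95, 10.87 and 8.11 in NP. Of 12 macrophage and monocyte markers 11 were below 0 (median -0.66, -0.06 with the muscle covariate). Mrc1, the mannose receptor, was lower without overlap (8.3% of the list, against 4.15% of all genes). Among 20 cell cycle genes 19 were below 0 (median -0.4), and the median was 0.9 with the muscle covariate. On chromosomes with at least 100 genes tested, the share of genes called lower by DESeq2 ran from 0.59% on chromosome 17 to 2.49% on chromosome 18.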
